A study of Homo sapiens with 19 samples.

Results

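Complement is represented here by 10 genes chosen by name: C1QA, C1QB and C2 of the classical pathway, the central component C3, CFB, CFD and CFP of the alternative pathway, the receptors C3AR1 and VSIG4, and the inhibitor gene SERPING1. All 10 of the 10 listed genes were on the array, with 13 probes of the 50238 probes for 31033 gene names. They were measured in THP-1, a human monocytic leukaemia line that 30 nM phorbol myristate acetate (PMA) turns into adherent macrophage-like cells, so the arrays stand for separate flasks of a single line. Every flask of both arms was given PMA before the experiment, untreated (UT) cells received nothing more, and vit C-treated cells received vitamin C at 0.1 mM. Cells were harvested 8, 24, 48 and 96 h after vit C was added. UT cells were measured on 2, 3, 2 and 3 arrays at these times and vit C-treated cells on 3, 2, 2 and 2 arrays, which makes 19 arrays in 8 groups.

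Complement is a cascade of plasma proteins that marks microbes and dying cells for uptake and recruits inflammatory cells. The classical pathway starts when C1q binds immune complexes or other targets and C1r and C1s cleave C4 and C2, while the alternative pathway amplifies deposited C3b with factor B and factor D and is stabilized by properdin. Liver makes most of the circulating proteins, whereas macrophages are the main source of C1q and properdin comes largely from leukocytes.

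The promoters below are those of C1QA, C1QB, C2, CFB, CFP and VSIG4, the members that were called higher at 96 h than at 8 h in both arms, shown so that their start sites can be compared. Interferons are textbook inducers of C2 and CFB, so the promoters were searched on both strands for the ISRE core, 2 copies of GAAA with any 2 bases between them, the site of interferon regulatory factors. Each runs 5′ to 3′ on the strand of its gene, from 250 bases before to 50 bases after the annotated start in build GRCh38.p14, credited to RefSeq, and capitals mark the match. The table held 11 promoters for 8 of the 10 genes, and for C1QA, C2 and CFP, which have more than 1 entry, the entry that lies first on the chromosome is printed.
C1QA promoter, chr1:22636213-22636512, plus strand: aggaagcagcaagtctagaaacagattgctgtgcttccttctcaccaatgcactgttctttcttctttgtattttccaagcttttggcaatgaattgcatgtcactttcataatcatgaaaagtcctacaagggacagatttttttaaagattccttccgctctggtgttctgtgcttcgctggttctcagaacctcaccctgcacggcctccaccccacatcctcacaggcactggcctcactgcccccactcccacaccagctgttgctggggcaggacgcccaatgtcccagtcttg
C1QB promoter, chr1:22652986-22653285, plus strand: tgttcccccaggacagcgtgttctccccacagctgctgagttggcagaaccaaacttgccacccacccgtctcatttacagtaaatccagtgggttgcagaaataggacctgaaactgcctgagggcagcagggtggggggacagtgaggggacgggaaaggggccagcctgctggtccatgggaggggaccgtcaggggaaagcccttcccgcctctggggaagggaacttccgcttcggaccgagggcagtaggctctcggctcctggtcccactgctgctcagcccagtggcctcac
C2 promoter, chr6:31897533-31897832, plus strand: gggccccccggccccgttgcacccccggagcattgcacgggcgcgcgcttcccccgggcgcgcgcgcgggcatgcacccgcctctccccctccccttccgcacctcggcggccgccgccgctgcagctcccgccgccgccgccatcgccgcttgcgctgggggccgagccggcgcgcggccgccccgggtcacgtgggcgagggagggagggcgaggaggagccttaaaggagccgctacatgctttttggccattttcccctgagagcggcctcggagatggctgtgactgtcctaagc
CFB promoter, chr6:31945845-31946144, plus strand: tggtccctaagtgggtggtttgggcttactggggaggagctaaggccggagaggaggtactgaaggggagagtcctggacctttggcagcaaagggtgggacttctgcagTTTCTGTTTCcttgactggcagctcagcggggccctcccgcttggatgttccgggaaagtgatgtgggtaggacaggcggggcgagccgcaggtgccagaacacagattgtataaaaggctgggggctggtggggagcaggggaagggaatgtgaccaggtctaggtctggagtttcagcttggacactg
CFP promoter, chrX:47629881-47630180, minus strand: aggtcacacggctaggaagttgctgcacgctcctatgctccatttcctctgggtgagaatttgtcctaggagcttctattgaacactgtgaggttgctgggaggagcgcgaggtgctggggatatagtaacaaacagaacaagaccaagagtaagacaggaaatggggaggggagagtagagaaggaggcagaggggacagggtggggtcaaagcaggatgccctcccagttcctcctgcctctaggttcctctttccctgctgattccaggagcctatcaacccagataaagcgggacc
VSIG4 promoter, chrX:66040031-66040330, minus strand: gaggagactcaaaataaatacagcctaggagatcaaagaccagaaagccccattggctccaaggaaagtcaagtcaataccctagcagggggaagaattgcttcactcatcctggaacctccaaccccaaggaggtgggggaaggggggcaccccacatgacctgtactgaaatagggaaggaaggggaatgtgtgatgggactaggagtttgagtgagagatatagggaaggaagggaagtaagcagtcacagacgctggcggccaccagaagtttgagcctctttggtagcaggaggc

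The ISRE core was found in the CFB window on the opposite strand, from 140 to 131 bases before the start. The windows of C1QA, C1QB, C2, VSIG4, CFD, CFP and C3AR1 did not hold these letters on either strand. Of all 35116 promoters of the same length, 3.57% held the ISRE core. A match is a description of letters, and no match says nothing about a factor.

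The level of a probe is given as its normalized signal, which is the log2 of the scanner's processed intensity minus the 75th percentile of its array, so 0 is that percentile. Between 57.5% and 72.8% of the probes of an array were well above background by the scanner software, and array replicates of a group correlated at 0.962 to 0.990 over all probes, lowest for the 3 UT arrays at 96 h, of which replicate 3 stood apart. The arrays lay on 4 slides. UT arrays of 8, 24 and 48 h and replicate 1 of 96 h shared slide 1. The other UT arrays of 96 h, the vit C arrays of 8 and 24 h and replicate 1 of 48 h shared slide 2, replicate 2 of vit C at 48 h was on slide 3, and both vit C arrays of 96 h were alone on slide 4, scanned on another day, with the highest 75th percentiles (788 and 903, against 290 to 626 on the others). No slide held both arms at the same time, so at every time a difference between the arms was also one between slides. Slides 1 and 2 were linked only by the UT arrays of 96 h. At 96 h slide and vit C cannot be told apart. Of 11 macrophage markers on the array, 9 or 10 were well above background on every array of each group and MRC1 was on none. In bulk RNA, fewer cells of a type and less RNA per cell cannot be told apart.

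A gene was called when 1 of its probes differed by at least 1 on the log2 scale with a Benjamini-Hochberg adjusted p of at most 0.05 in limma, fitted to all probes of the 19 arrays. Values are those of the brightest probe of a gene. Detection differed among the members. C2, C3, CFD, CFP, C3AR1 and VSIG4 were well above background on all 19 arrays, CFB on 16, C1QB on 12, C1QA on 8 and SERPING1 on 0 of 19. For SERPING1, which encodes the C1 inhibitor, the signal therefore gives no level and no fold in any comparison.

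**Figure D1:**
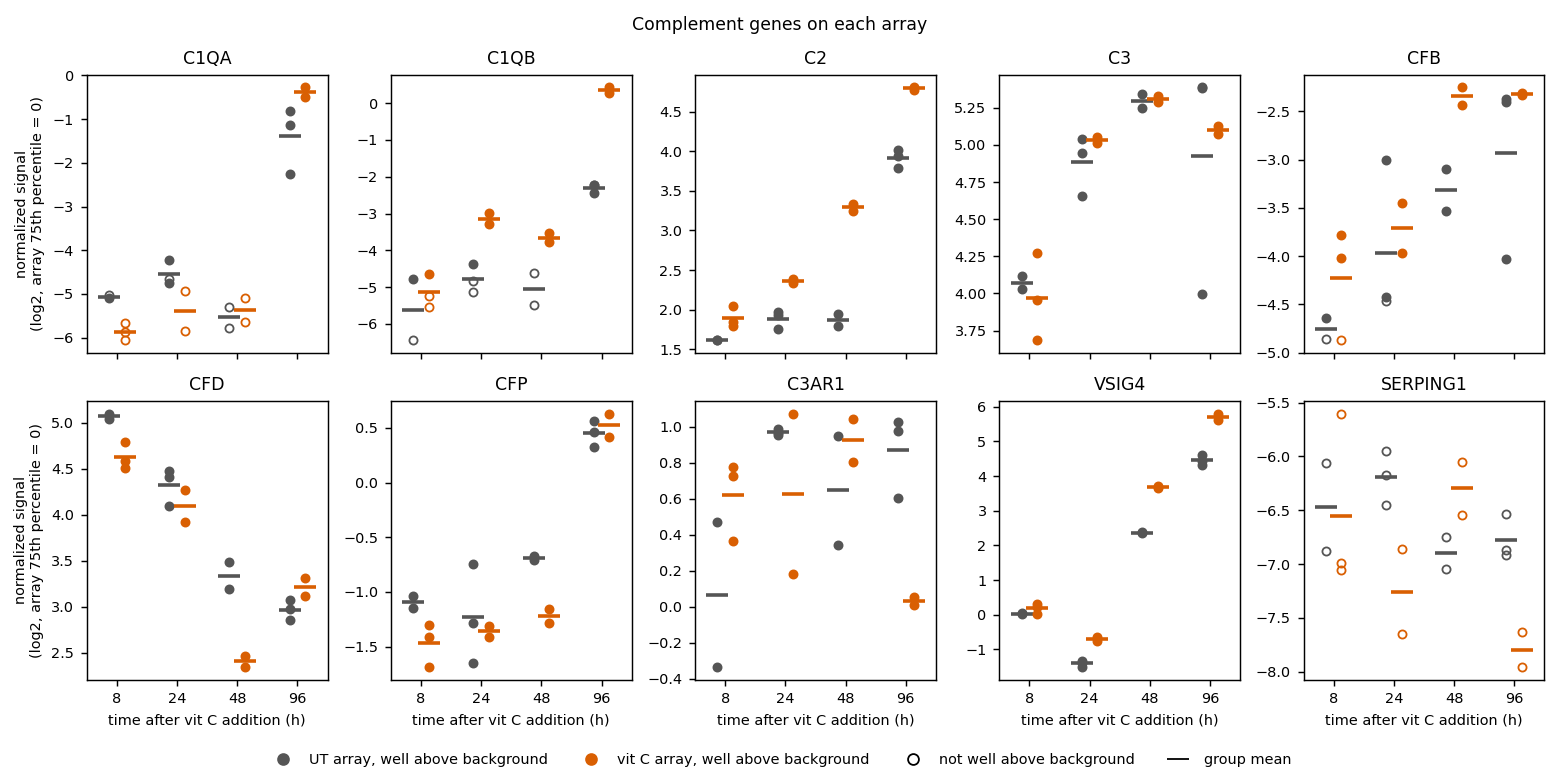
Normalized signal (log2, 75th percentile of the array = 0) of the brightest probe of each gene on each of the 19 arrays, by time after vit C addition, with UT arrays in grey, vit C arrays in orange, open circles for arrays on which the probe was not well above background, a bar for the group mean and a separate vertical axis for each gene. VSIG4 spans -1.50 to 5.80 and both arms dip at 24 h, and all 19 SERPING1 values are open circles. C1QA is well above background on every array of 96 h, and before that on some UT arrays and on no vit C array.

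The question of the study was which macrophage genes respond to vit C over time. In vit C-treated against UT cells, 0 of the 10 complement genes were called at 8 h, where 0.549% of all genes tested were, and 0 of 10 at 24 h, where 1.65% were. At 48 h C2 and VSIG4 were higher with vit C, 2 of 10 against 3.64% of all genes, and at 96 h C1QB, VSIG4 and C2 were, 3 of 10 against 12.8%. That last share moved with the scaling, from 716 genes higher and 2659 lower here to 560 higher and 440 lower under quantile normalization, where C1QB, C2 and VSIG4 were called as well. It also moved with single arrays, from 3375 genes to 480 and 541 without replicate 1 or 2 of vit C, 1387 and 1174 without replicate 1 or 2 of UT and 5992 without UT replicate 3, with C1QB and VSIG4 called in each. At the earlier times too, leaving out 1 array moved the number of genes called, from 138 to between 17 and 77 (8 h), from 432 to between 95 and 366 (24 h) and from 926 to between 280 and 536 (48 h), where C2 and VSIG4 were called in each. None of the 10 was called lower with vit C at any time. Without SERPING1, the median difference over the other 9 genes was 0.15, 0.15, 0.28 and 0.61 at 8, 24, 48 and 96 h, beside -0.05, -0.13, -0.02 and -0.15 over all genes. With 1 array left out the 9-gene median ran from -0.14 to 0.22 (8 h), from -0.01 to 0.23 (24 h), from 0.16 to 0.58 (48 h) and from 0.30 to 0.90 (96 h), lowest at 8 h without UT replicate 2, at 24 h without vit C replicate 1, at 48 h without vit C replicate 2 and at 96 h without UT replicate 3. It was 0.40, 0.63 and 0.69 over the first 3 times with the slide as a fixed block, and -0.15 at 24 h and 0.31 at 96 h with normexp. At an unadjusted p of 0.05 with the same size of difference, 0 members and 1770 genes in all passed at 8 h, and at 24 h 3 members (C1QB, a dim probe of C2 and the undetected SERPING1) and 2228 genes.

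C1QB encodes the B chain of C1q, the recognition molecule of the classical pathway. At 96 h its normalized signal was -2.24, -2.23 and -2.44 on the 3 UT arrays and 0.43 and 0.28 on the 2 vit C arrays. Both vit C arrays lay above all 3 UT arrays, by a 6.32-fold difference (2.66 ± 0.42, log2 ± SE, adjusted p = 0.00207 by limma). Without UT replicate 3 the difference was 2.59. At 24 h the vit C arrays read -2.99 and -3.28 and the UT arrays -4.85, -4.38 and -5.15, of which 1 of 3 was well above background. These groups did not overlap either, but the difference of 1.66 ± 0.42 missed the threshold (adjusted p = 0.0619 by limma), and it came to 0.26 with normexp background correction. At 48 h the vit C arrays read -3.53 and -3.78 while 0 of 2 UT arrays was well above background, which bounds the difference at 1.93-fold or more (adjusted p = 0.117 by limma).

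C1QA encodes the A chain of the same molecule. Its signal at 96 h was -1.13, -0.80 and -2.25 on the UT arrays and -0.27 and -0.49 on the vit C arrays. The vit C arrays were above every UT array, with a difference of 1.01 ± 0.38 that missed the threshold (adjusted p = 0.0884 by limma) and was 0.59 without UT replicate 3. At 8 h 1 of 2 UT arrays and 0 of 3 vit C arrays were above background, at 24 h 2 of 3 and 0 of 2, and at 48 h none of either arm. The 24 h means bound the UT level at 1.49-fold or more of the vit C level, with an adjusted p of 0.277 by limma.

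C2 encodes the serine protease of the classical C3 convertase and has 4 probes. On the brightest, the UT arrays at 48 h read 1.94 and 1.79 and the vit C arrays 3.25 and 3.33. Both vit C arrays stood above both UT arrays, 2.69-fold (1.43 ± 0.18, adjusted p = 0.00083 by limma). The arms lay on different slides at 48 h, and with the slide as a fixed block the difference was 1.54 ± 0.31 and no longer called (adjusted p = 0.0663 by limma). The blocked difference rests on replicate 1 of vit C and on the UT arrays of 96 h, which link the slides. At 96 h the UT arrays read 4.02, 3.95 and 3.79 and the vit C arrays 4.81 and 4.78, again without overlap, for a difference of 0.88 ± 0.16 (adjusted p = 0.00569 by limma). That difference is under the size required. The call at 96 h came from a dimmer probe, at 1.06 ± 0.33 (adjusted p = 0.0446 by limma), and it was lost in 16 of 20 alternatives, among them without UT replicate 2 or 3 and without either vit C array. At 8 and 24 h the brightest probe differed by 0.28 ± 0.16 and 0.48 ± 0.16, and neither was called.

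**Figure D2:**
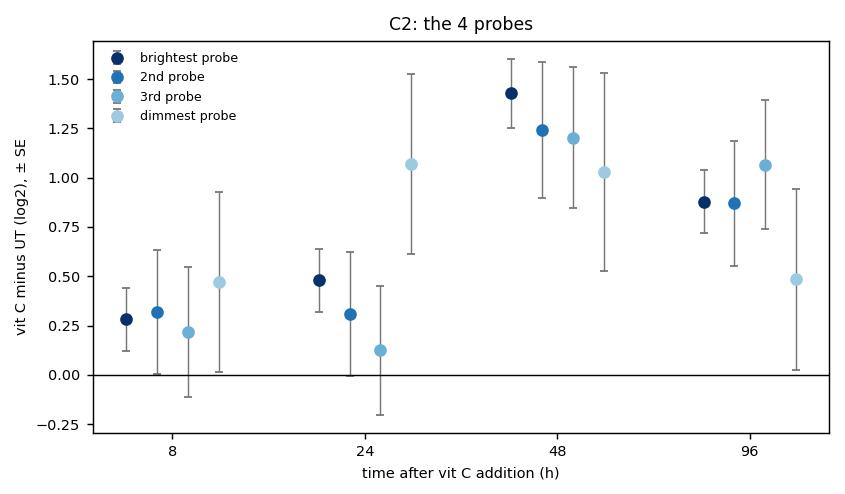
Difference between vit C and UT arrays (log2, ± SE of the limma fit) for each of the 4 probes of C2 at each time after vit C addition, ordered within a time from the brightest to the dimmest probe. All 4 probes lie above 0 at every time, and at 48 h they range from 1.03 to 1.43.

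C3, whose cleavage is the step on which all pathways converge, showed no called difference between the arms. At 48 h the UT arrays read 5.35 and 5.25 and the vit C arrays 5.29 and 5.33, which overlap, with a difference of 0.01 ± 0.37. Elsewhere the arms differed by -0.10 (8 h), 0.15 (24 h) and 0.18 (96 h), with an SE of 0.33 throughout. The sign at 96 h turned on UT replicate 3, which read 4.00 where the other UT arrays both read 5.39, and the difference was -0.29 ± 0.19 without it.

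Of the alternative pathway, CFB encodes factor B, the protease of the alternative convertase, CFD the factor D that activates it, and CFP properdin, which stabilizes the convertase. None was called between the arms. CFD came closest at 48 h, where the UT arrays read 3.48 and 3.19 and the vit C arrays 2.35 and 2.47. Both vit C arrays were below both UT arrays, and the difference of -0.93 ± 0.21 passed the adjusted p (0.0245 by limma) but not the size required. At 96 h the CFD difference had the opposite sign, 0.25 ± 0.19. CFB differed by 0.53, 0.25, 0.97 and 0.61 at 8, 24, 48 and 96 h, with SEs of 0.51 to 0.56, and by 0.06 at 96 h without UT replicate 3. CFP differed by -0.38, -0.13, -0.53 and 0.07, with SEs of 0.23 to 0.25.

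VSIG4 encodes CRIg, a macrophage receptor for C3b and iC3b that takes up opsonized particles and inhibits the alternative convertase. At 8 h its signal was 0.02 and 0.05 on the UT arrays and 0.02, 0.31 and 0.23 on the vit C arrays, which overlap. At 48 h the UT arrays read 2.35 and 2.38 and the vit C arrays 3.64 and 3.71, and at 96 h the UT arrays read 4.61, 4.30 and 4.43 and the vit C arrays 5.80 and 5.60. The arms did not overlap at either time, and vit C-treated cells were 2.48-fold higher at 48 h (1.31 ± 0.18, adjusted p = 0.00183 by limma) and 2.38-fold higher at 96 h (1.25 ± 0.17, adjusted p = 0.000623 by limma). With the slide as a fixed block the 48 h difference was 1.52 ± 0.32 and no longer called (adjusted p = 0.0716 by limma), and at 96 h this block could not be fitted. The blocked 48 h difference rests on replicate 1 of vit C and on the UT arrays of 96 h, which link the slides. At 24 h the UT arrays read -1.39, -1.50 and -1.32 and the vit C arrays -0.64 and -0.75. These did not overlap, and the difference of 0.71 ± 0.17 passed the adjusted p (0.0483 by limma) but was smaller than 1.

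The receptor of the C3a anaphylatoxin, encoded by C3AR1, was not called in any comparison. Its signal at 96 h was 0.60, 1.03 and 0.97 on the UT arrays and 0.06 and 0.01 on the vit C arrays. The vit C arrays were lowest, with a difference of -0.83 ± 0.29 (adjusted p = 0.0709 by limma). At 8, 24 and 48 h the arms overlapped, at differences of 0.56, -0.34 and 0.28.

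**Figure D3:**
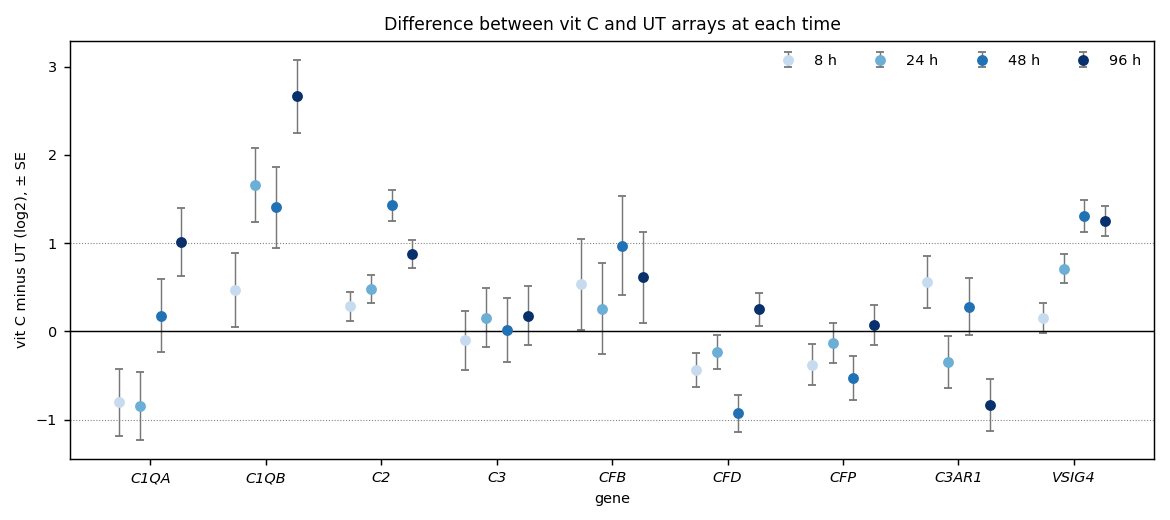
Difference between vit C and UT arrays (log2) of the brightest probe of the 9 genes detected on at least 8 arrays, with the SE of the limma fit as bars, from light (8 h) to dark (96 h), and dotted lines at 1 and -1. The largest is C1QB at 96 h at 2.66, while C3 stays between -0.10 and 0.18.

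Whether the vit C effect differed between times was tested over all 31033 genes with limma's F test, which asks if the 4 effects are equal. This passed for 0 of the 10 members and for 1.36% of all genes (limma F test; at an unadjusted p of 0.05, 7 members, the undetected SERPING1 among them, and 24.9% of all genes), with the lowest adjusted p values for VSIG4 (0.0647) and C2 (0.0845). It passed for 3 members under quantile normalization (C2, CFD and VSIG4), for 3 under normexp (C1QB, C2 and VSIG4) and for 0 with the percentile taken over detected probes (limma, lowest adjusted p 0.0511 for VSIG4), where 681, 662 and 446 genes passed in all, against 422 with the normalization used elsewhere. Taken singly, the effect at 96 h minus that at 8 h passed for VSIG4, by 1.10 ± 0.23 (adjusted p = 0.0414 by limma), against 1.56% of all genes, and for no other member. The effect at 48 h minus that at 8 h was 1.16 ± 0.25 for VSIG4 and 1.15 ± 0.24 for C2, with adjusted p of 0.117 and 0.110 by limma, where 0.113% of genes passed, and at 24 h no member and 0.0322% of genes passed. These differences were also fitted with the slide as a fixed block for 24 and 48 h, an alternative chosen after the data were seen. They were then 1.12 ± 0.28 for VSIG4 and 1.10 ± 0.28 for C2 at 48 h, resting on replicate 1 of vit C, with adjusted p of 0.221 and 0.231 by limma.

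Time within an arm was the second comparison, with the 8 h arrays as the shared reference of 24, 48 and 96 h. In UT cells 1 of 9 members tested was called at 24 h (VSIG4 lower), beside 2.65% of all genes, and C2 was not tested there because its probes differed in sign. At 48 h 3 of 10 were called (VSIG4 and C3 higher, CFD lower) beside 8.9%, and at 96 h 7 of 10 (C1QA, C1QB, C2, CFB, CFP and VSIG4 higher, CFD lower) beside 16.1%. Among vit C arrays 1 of 10 was called at 24 h (C1QB higher) beside 5.61%, and 6 of 10 at 48 h (C1QB, C2, C3, CFB and VSIG4 higher, CFD lower) beside 13.1%. At 96 h 9 of 10 were called beside 28.9%, with C1QA, C1QB, C2, C3, CFB, CFP and VSIG4 higher and CFD and SERPING1 lower, though SERPING1 was above background on no array. The vit C arrays of 96 h lay on a slide and scan day of their own, so in this arm the changes from 8 to 96 h cannot be told apart from the slide. Leaving out 1 array moved the number of genes called by over 1.5 times in 4 of these 6 comparisons: for UT at 24 h from 691 to 355 and 269 without replicate 1 or 2 of 8 h, for UT at 48 h from 2360 to 1552 without replicate 2 of 8 h, for vit C at 24 h from 1469 to 975 without its replicate 2, and for vit C at 96 h from 7842 to 4142 without its replicate 2. Without SERPING1, the median change of the other 9 genes at 96 h was 1.82 in UT and 1.99 in vit C-treated cells, beside 0.02 and -0.17 over all genes. In vit C-treated cells 2964 genes were higher and 4878 lower at 96 h than at 8 h. Quantile normalization gave 2800 and 2410, kept the calls of 8 of the 9 members and lost SERPING1.

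**Figure D4:**
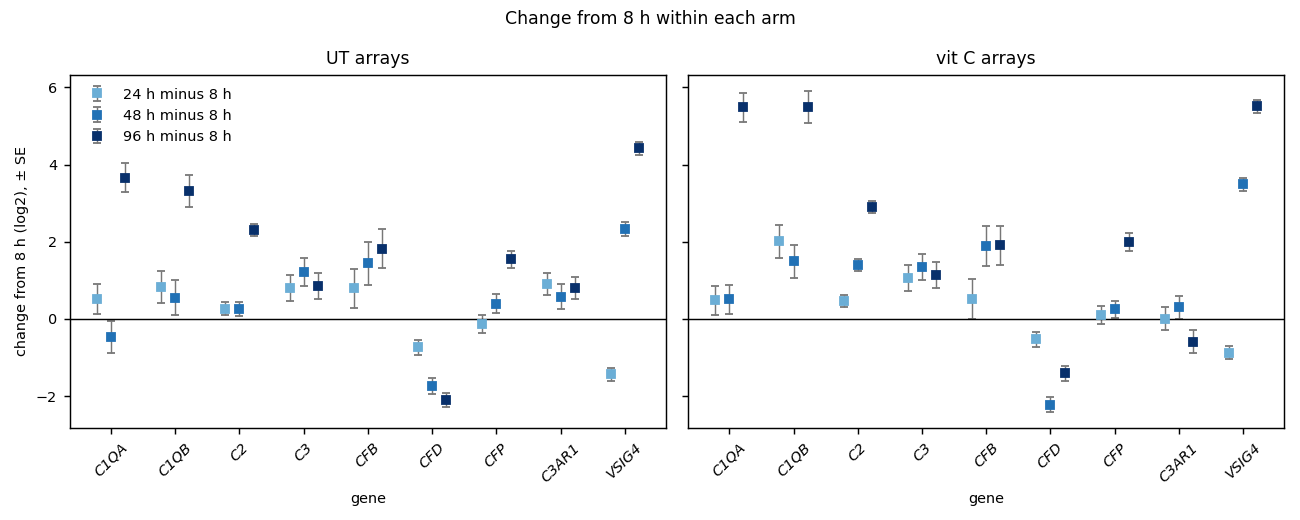
Change from 8 h (log2, ± SE of the limma fit) of the brightest probe of 9 complement genes at 24, 48 and 96 h, from light to dark, in UT arrays on the left and vit C arrays on the right. At 96 h VSIG4 is at 4.42 in UT and 5.51 in vit C arrays, CFD lies below 0 in both arms, and C2 at 48 h is at 0.25 in UT and 1.40 in vit C arrays.

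VSIG4 first fell and then rose in UT cells. There it fell by 1.44 ± 0.17 from 8 to 24 h (adjusted p = 0.000273 by limma) and was 2.33 ± 0.18 above its 8 h level at 48 h and 4.42 ± 0.17 above it at 96 h, which is 21.4-fold. Under vit C the change at 24 h was -0.88 ± 0.17, short of the size required, and those at 48 and 96 h were 3.49 ± 0.17 and 5.51 ± 0.17, or 11.2-fold and 45.7-fold. The 24 and 48 h values of UT cells were within 1 slide. All arrays of 24 h lay below and all of 48 and 96 h above those of 8 h in both arms.

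C1QA was near background in both arms until 48 h and well above it at 96 h. In UT cells its mean rose from -5.06 at 8 h to -1.39 at 96 h, 3.66 ± 0.38 (adjusted p = 8.18e-06 by limma), and it was 4.09 without UT replicate 3. With vit C the 8 h arrays read -5.67, -5.86 and -6.06, none well above background, so the rise at 96 h was at least 23.6-fold (adjusted p = 1.36e-07 by limma). With normexp background correction the fitted rise was 1.70 in UT cells and 2.40 in vit C-treated cells, where the fit without it gave 3.66 and 5.48, and both stayed called. No vit C array of 8 h was well above background, so the fitted values of that arm give no fold. C1QB rose by 3.31 ± 0.42 in UT cells at 96 h, from arrays of -4.77 and -6.45 of which 1 of 2 was above background. In vit C-treated cells it rose by 2.01 ± 0.42 at 24 h (adjusted p = 0.0086 by limma), by 1.49 ± 0.42 at 48 h and by 5.50 ± 0.42 at 96 h, from 8 h arrays of -4.65, -5.54 and -5.24 of which 1 of 3 was above background. The 24 h call was lost without replicate 1 of vit C at 24 h, and the 48 h call without replicate 2 or 3 of 8 h or either 48 h array. With normexp background correction the 24 h change was 0.57 and that at 48 h was 0.54, neither called, and the rise at 96 h was 3.04.

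C2 in UT cells was at 0.25 ± 0.18 above its 8 h level at 48 h, which was not called (adjusted p = 0.392 by limma), and rose by 2.30 ± 0.16 by 96 h. In vit C-treated cells it rose by 1.40 ± 0.16 at 48 h (adjusted p = 2.71e-05 by limma) and by 2.90 ± 0.16 at 96 h. All 4 of its probes were called in both arms at 96 h. CFB rose by 1.82 ± 0.51 in UT and by 1.91 ± 0.51 in vit C-treated cells at 96 h, and by 1.88 ± 0.51 in vit C-treated cells at 48 h. The UT call was lost without either 8 h array and without replicate 1 or 2 of 96 h, the vit C call at 48 h without replicate 2 of 8 h or either 48 h array, and that at 96 h without either 96 h array. With normexp background correction the change was 0.71 in UT cells at 96 h and, with vit C, 0.91 at 48 h and 0.59 at 96 h, and none was called. In UT cells CFB read -4.65 and -4.86 at 8 h and -2.37, -2.40 and -4.03 at 96 h, where replicate 3 lay nearer to the 8 h arrays than to the others of its group.

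CFD took the opposite course. Its UT arrays started at 5.04 and 5.10, read 4.47, 4.10 and 4.41 at 24 h and 3.48 and 3.19 at 48 h, and ended at 2.97, 2.85 and 3.07. Each group lay wholly below that of the preceding time, and CFD fell by 1.73 ± 0.21 at 48 h and by 2.10 ± 0.19 at 96 h, 4.29-fold. The vit C arrays showed it lower too. It fell by 2.22 ± 0.19 at 48 h and by 1.41 ± 0.19 at 96 h, from 4.58, 4.51 and 4.79 at 8 h to 2.35 and 2.47 at 48 h and 3.31 and 3.12 at 96 h. Here the lowest arrays were those of 48 h.

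C3 rose by 1.22 ± 0.37 in UT cells at 48 h (adjusted p = 0.048 by limma), a call that leaving out any of the 4 arrays ended. At 96 h its change in UT cells was 0.85 ± 0.33 and not called, and 1.31 ± 0.19 and called without UT replicate 3. In vit C-treated cells C3 rose by 1.34 ± 0.33 at 48 h and by 1.13 ± 0.33 at 96 h, calls that leaving out either array of the later time ended. The 96 h call was also lost without replicate 2 of 8 h. CFP, which stayed between -1.69 and -0.67 up to 48 h, rose by 1.54 ± 0.23 in UT and by 1.99 ± 0.23 in vit C-treated cells at 96 h, when its 5 arrays read 0.33 to 0.63. C3AR1 lay between -0.33 and 1.07 over all 19 arrays.

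Markers of other cell states moved with these time courses. The summed level of 6 cycling genes ran from 3.37 to 3.56 at 8 h, with all 6 above background on every array. At 96 h it was 6.41 to 6.84 in UT and 6.36 to 6.37 in vit C-treated cells. The summed level of 5 early myeloid genes ran from 5.27 to 5.64 at 8 h. At 96 h it was 2.20 to 2.81 in UT and 2.11 to 2.15 in vit C-treated cells. MPO was above background on no UT array after 8 h. The 4 fibroblast genes summed to between -4.41 and -4.00 at 8 h, and to -0.52 to 0.38 in UT and 2.11 to 2.30 in vit C-treated cells at 96 h, with DCN above background on every 96 h array, COL1A1 on every vit C array of 48 and 96 h and on no UT array, and COL1A2 on none. The 4 hepatocyte genes summed to between -0.40 and 0.80 over all arrays, and the 5 lymphocyte genes to between 0.53 and 2.34, with CD3D on no array. At 96 h the hepatocyte sum was 0.37 to 0.77 in UT and -0.40 to -0.29 in vit C-treated cells. The lymphocyte sum was 0.80 to 1.98 and 0.69 to 0.92 then, and the macrophage sum 9.02 to 9.08 and 9.06 to 9.17. At 48 h, where C2 and VSIG4 were called with vit C, the fibroblast sum was -1.16 to -0.90 in UT and 1.15 to 1.18 in vit C-treated cells, the cycling sum 4.73 to 4.93 and 5.52 to 5.56, and the early myeloid sum 1.53 to 2.67 and 0.99 to 1.05. The lymphocyte sum was 0.96 to 1.39 and 1.94 to 2.34, and the hepatocyte sum 0.72 to 0.80 and 0.11 to 0.22. That of the macrophage markers overlapped between the arms, at 9.15 to 9.17 in UT and 9.11 to 9.25 in vit C-treated cells. Each arm had 2 arrays then. The part of these markers in the complement changes was not tested.

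The wider complement list held 48 other genes, all of them on the array, of which 26 to 33 were detected in a comparison. Calls with vit C numbered 1, 0, 3 and 7 over the 4 times, and of the 7 at 96 h 4 were higher and 3 lower. Genes with probes of opposite sign were not tested, which left 35, 40, 34 and 41 of the list, and the shares of all genes tested that were called were 0.549%, 1.65%, 3.64% and 12.8%. The 96 h genes named by the rule were C1QC, the third chain gene of C1q, at 1.31 ± 0.41 (adjusted p = 0.0457 by limma), FCN1, which encodes the lectin pathway recognition molecule M-ficolin, at 2.08 ± 0.29, the C1q-receptor-like CD93 at 1.16 ± 0.19, and C9 of the membrane attack complex, above background on 2 of 2 vit C and 0 of 3 UT arrays, which gives no fold (adjusted p = 0.0348 by limma). At 48 h ITGAM, a chain of the iC3b receptor CR3, was lower with vit C by -1.17 ± 0.18, and CPN2, the large subunit of carboxypeptidase N, was higher by 1.15 ± 0.23, as it was at 8 h by 1.13 ± 0.21. Over the detected genes of the list the median difference was -0.13, 0.13, 0.06 and 0.10 at the 4 times.

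With time, 3, 7 and 9 of the wider list were called at 24, 48 and 96 h in UT cells and 1, 5 and 18 in vit C-treated cells. The list had 43, 40 and 34 genes tested in UT and 37, 43 and 41 in vit C-treated cells. Of all genes tested, 2.65%, 8.9% and 16.1% were called in UT and 5.61%, 13.1% and 28.9% in vit C-treated cells. CD59, which blocks the membrane attack complex, rose by 2.05 ± 0.19 at 24 h and 2.82 ± 0.21 at 48 h in UT cells and by 2.32 ± 0.19 and 2.41 ± 0.19 in vit C-treated cells. C5AR1, the C5a receptor, rose by 1.22 ± 0.19 in UT cells at 24 h, and PTX3, a long pentraxin that binds C1q, changed by -1.82 ± 0.37 in UT and -1.39 ± 0.34 in vit C-treated cells at 48 h. C9 was above background on both UT arrays of 8 h and on none later, and was called lower each time, by at least 1.16-fold at 24 h and at least 1.33-fold at 96 h. C5, the precursor of C5a, rose by 1.04 ± 0.25 in UT and 1.14 ± 0.23 in vit C-treated cells at 48 h, and by 2.37 ± 0.23 in UT and 2.80 ± 0.23 in vit C-treated cells at 96 h. ITGAX, a chain of the iC3b receptor CR4, changed by -1.88 ± 0.21 and -2.17 ± 0.21 at the same time. C1QC was above background at 96 h and on no 8 h array of either arm, which makes its rise at least 2.03-fold in UT and at least 4.14-fold in vit C-treated cells. FCN1 rose by 1.37 ± 0.29 at 48 h and by 3.36 ± 0.29 at 96 h in vit C-treated cells.

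Of 20 interferon-responsive genes, 18 were on the array, and with vit C 0 were called at 8, 24 and 48 h, where 0.549%, 1.65% and 3.64% of all genes tested were, and 1 at 96 h beside 12.8%. That gene, CXCL11, named after its values were seen, was above background on 0 of 2 vit C and 2 of 3 UT arrays and at least 2.35-fold lower with vit C (adjusted p = 0.0127 by limma). Against 8 h, 2, 3 and 5 were called in UT cells at 24, 48 and 96 h, and 1, 6 and 6 in vit C-treated cells, of which 1 was higher and 5 were lower at 48 h and likewise at 96 h. Between 14 and 17 of the 18 were tested in a comparison. The shares of all genes called against 8 h were again 2.65%, 8.9% and 16.1% in UT and 5.61%, 13.1% and 28.9% in vit C-treated cells. GBP1, a guanylate-binding protein gene, rose by 2.85 ± 0.45 in UT and 3.86 ± 0.45 in vit C-treated cells at 96 h, while IRF7 changed by -2.54 ± 0.20 and -2.52 ± 0.20 and MX1 by -1.49 ± 0.16 and -1.61 ± 0.16. At 48 h IRF7 changed by -1.30 ± 0.22 in UT and -1.03 ± 0.20 in vit C-treated cells, and GBP1 rose by 2.08 ± 0.45 in the latter. IFI44L was higher at 24 h, by 1.53 ± 0.25 in UT and 1.01 ± 0.25 in vit C-treated cells, and in UT cells IFIT3 was higher by 1.37 ± 0.30 at 24 h and IFI6 by 1.25 ± 0.37 at 48 h. From 8 to 48 h in vit C-treated cells, the chemokine gene CXCL10 changed by -2.33 ± 0.53 and IFIT1 by -1.10 ± 0.25. From 8 to 96 h, ISG15 changed by -1.20 ± 0.16 in UT cells and OAS1 by -1.56 ± 0.35 in vit C-treated cells. The median change of the detected genes of the list at 96 h was -0.32 in UT and -0.82 in vit C-treated cells.

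By the 8 group means, the genes most like a member in pattern among 17291 candidates detected on all arrays were, where they carry a gene symbol, RBM17 for C2 (Pearson r = 0.985), CALM3 and SPACA3 for C3 (0.979 and 0.975), KLF11 and SYK for CFP (0.992 and 0.990), GBAP and C9orf165 for C3AR1 (0.945 and 0.933) and ANTXR1 for VSIG4 (0.991). The other closest neighbours, those of CFD included, are listed under transcript identifiers. These correlations describe 8 points that share normalization and slides.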

How the data were processed

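RNA of PMA-differentiated THP-1 cells was measured on 19 single-colour Agilent arrays, grouped by arm and time from the sample labels. For the intensity values, the authors scanned the arrays and deposited the spot tables of Agilent's Feature Extraction 10.5.1.1, which hold a detrended processed signal per spot that is not yet normalized. The authors also deposited log2 values, a series matrix with this signal shifted to the 75th percentile of each array in GeneSpring, which served as an alternative. Its column medians ran from -3.36 to -3.19, and for probes with a single spot it was found to equal the log2 processed signal minus a constant per array. Gene names are those of the array design, and the annotation of the design is on an older genome build than the promoters.

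Control spots were left out, spots of a probe averaged on the log2 scale, and the 75th percentile subtracted. The means of 8 groups were fitted to 50238 probes with limma 3.58.1 (lmFit and eBayes, 2-sided) in R 4.3.3. Genes whose probes differed in sign were removed before the Benjamini-Hochberg adjustment, as in the methods. Where no array of a group was well above background, a fold is given as at least the ratio to the lowest signal well above background. The fitting step was tested on simulated data. The search for a second planned motif is not reported here. The motif search and figures were made with Python 3.11.15 and matplotlib 3.10.9. The study describes separate flasks, so p-values measure the spread between flasks of a single line, and the number of arrays limits the precision.

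All 10 members were described in every comparison. Of the other lists, up to 4 called genes per comparison with the largest change were named where the brightest probe was detected on all arrays of at least 1 group, with genes called only through another probe left to the counts. Members and lists were chosen with earlier results of these data known. The alternatives were other normalizations, background corrections, floors and filters, gene means, opposing probes kept, 2 groups alone, the methods' t-test, unadjusted p, an intensity trend, slide or replicate number as a block, arrays of 1 slide, the series matrix, and each array left out in turn.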

Additional observations from a re-analysis of the deposited data

Results flagged for a closer look

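The difference between the arms in VSIG4 was 0.15 at 8 h and 1.25 at 96 h, and the test of this change gave 1.10 ± 0.23 with a limma adjusted p of 0.0414, while the F test over all 4 times did not pass (limma adjusted p = 0.0647), nor did the change from 8 to 48 h (limma adjusted p = 0.117). The vit C arrays of 96 h were alone on their slide, so this cannot be told apart from the slide.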

How the results depend on the processing

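No direction of a called member was reversed under any alternative run. With vit C against UT at 24 h, 1 member (C1QB) was called under quantile normalization, with signals floored at 20 and with dim probes left out, and 3 without adjustment of p. At 48 h C2 and VSIG4 were called with each array left out, and 0 members with the 2 groups alone, with the methods' t-test and with the slide as a fixed block (C2 at 1.54, VSIG4 at 1.52), which called 0, 3 and 138 genes in all. At 96 h, where a fixed slide block cannot be fitted, 0 were called with the 2 groups alone and with the methods' t-test, and 5, the undetected SERPING1 among them, at an unadjusted p, where 3, 0 and 4927 genes in all were called. Against 8 h, UT cells at 24 h had 0 calls with the 2 groups alone and with the methods' t-test (101 and 0 genes in all), UT cells at 48 h had 0 and at 96 h 3 with that test (0 and 285 genes). Vit C-treated cells at 24 h had 0 with the t-test (0 genes in all) and 2 at an unadjusted p or with an intensity trend, and at 48 h 3 with the t-test, with the slide as a fixed block and with the arrays of 1 slide. With an array left out the calls ran from 0 to 1 at 24 h (0 without vit C replicate 1) and from 3 to 6 at 48 h (3 without either 48 h array) in vit C-treated cells, where a group left with 1 array takes its spread from the other groups. The UT rise at 96 h was also taken with replicate 1 alone, on the slide of the 8 h arrays, an alternative chosen after the data were seen, and 7 members and 3359 genes were called, with C3 gained and CFB lost. The F test of the vit C effect by time, 0 members in the text, gave 3 under quantile normalization, 3 under normexp, 0 with the percentile over detected probes and 7 (with 24.9% of all genes) without adjustment, all added after the data were seen. Replicate numbers of the titles did not pair the arrays, since deviations of same-numbered arrays correlated at -0.11 to 0.09. With the replicate block of the titles the calls at 8, 24, 48 and 96 h were 0, 0, 2 and 2 for vit C against UT, and no count of members moved by over 1.5 times, while the genes called fell from 138 to 48 at 8 h and from 3375 to 1203 at 96 h. Dim signals limit C1QA, C1QB, CFB and SERPING1: with normexp the rise of C1QB at 96 h in UT cells was 1.15 in place of 3.31.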
